A study of Mus musculus with 8 samples.

Results

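Sialyltransferases are Golgi enzymes that move sialic acid from CMP-sialic acid onto the ends of glycans, and 10 of their genes are described here out of 18438 genes in the deposited table: St6galnac1, St6galnac2, St6galnac3, St6galnac4, St6galnac6, St6gal1, St3gal1, St3gal2, St3gal4 and St3gal6. Each was found by an exact match of its symbol, and each matched 1 row. The 10 were chosen by measured values of these libraries as well as by family name, with earlier results in view, and which of the values decided is not recorded. Their values, differences and counts are therefore given as a description, with no p-value for any of the 10. Another 7 sialyltransferase genes had a row (St3gal3, St3gal5, St6gal2, St6galnac5, St8sia1, St8sia4 and St8sia6), which makes 17 genes in the measured family.

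The RNA came from splenic T cells of C57BL/6 mice with experimental autoimmune encephalomyelitis (EAE) at day 7 after induction with the myelin antigen MOG, a model of multiple sclerosis. All 4 groups had EAE, and each held 2 libraries: regulatory T cells (Treg, the CD4+CD25hiYFP+ gate) from wild-type mice (WT Treg) and from mice labelled IRE1a-/- (KO Treg), and effector T cells (Teff, the CD4+CD25-YFP- gate) from the same genotypes (WT Teff and KO Teff). IRE1a, the product of Ern1, is a sensor of unfolded protein in the endoplasmic reticulum that splices Xbp1 mRNA. The labels give no age, do not say which cells carried the deletion, what drove it or which exons it removed, and do not tie the libraries to animals. P-values thus reflect the spread between 2 libraries a group alone, and that spread may be technical.

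The values were the authors' normalized read numbers, which summed to 17504097 to 18751258 per library, with 16324 to 16642 genes above 0. Values after ± are SDs over 2 libraries. The targeted gene, Ern1 (chr11:106394650-106487852), had 377 and 399 in WT Treg, 326 and 359 in KO Treg, 559 and 616 in WT Teff, and 458 and 453 in KO Teff. KO minus WT was -0.18 ± 0.10 (SE) in Treg and -0.37 ± 0.10 (SE) in Teff on the log2(value + 1) scale, and neither passed the limma test (adjusted p = 0.489 and 0.0902). A number for the whole gene does not single out a deleted part, so it does not check the genotype labels. Foxp3, the defining Treg transcription factor, was at 89.1 to 117 in the Treg libraries and at 2.06 and 8.29 in KO Teff, and each WT Teff library lists it at 0. Il2ra, which encodes CD25, was at 8699 or more in each Treg library and 690.3 or less in each Teff library. Of 6 Treg markers, none was called for KO against WT in Treg and 5 were called in Teff, beside 1.45% and 6.92% of all tested genes. In Teff, Ikzf2, Ctla4, Tnfrsf18 and Il2rb fell. Foxp3 was called higher there, but each of its Teff values was below 10 and so near the floor. The summed level of the 6 was 81404 to 81551 in WT Treg, 73554 to 74198 in KO Treg, 21580 to 23930 in WT Teff and 14706 to 16628 in KO Teff. Their part in the KO differences in Teff was not tested.

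Sialic acid is the usual last sugar of N-glycans, O-glycans and gangliosides on lymphocytes, where it carries negative charge, hides the galactose that galectins bind, and forms the ligands of Siglecs and part of the ligands of selectins. The families are named for the linkage they make and the sugar they act on. ST3GAL enzymes put sialic acid on galactose through the third carbon, ST6GAL enzymes put it on galactose through the sixth, ST6GALNAC enzymes put it on N-acetylgalactosamine through the sixth, and ST8SIA enzymes add it to another sialic acid. ST6GALNAC1 is known as the enzyme of the sialyl-Tn antigen, ST6GALNAC2 acts on O-glycans that already carry galactose, and ST6GAL1 makes the N-glycan ligand that CD22 prefers.

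St6galnac1 (chr11:116765025-116775507, minus strand, GRCm38) and St6galnac2 (chr11:116675303-116694868, minus strand) lie on the same chromosome with 70156 bases between them, and they are the genes on which the results turn. Each has 9 exons in the coding transcript compared. Their coding sequences are shown where they are most alike, because the reads were 50 bases long and could be shared by genes this close in sequence and position. The sequences are 50-base windows that span exons 8 and 9 of each gene, read 5′ to 3′ from the GRCm38 transcripts. Capitals mark the 10 bases at which the windows differ.
St6galnac1: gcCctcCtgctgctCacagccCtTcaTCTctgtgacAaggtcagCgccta
St6galnac2: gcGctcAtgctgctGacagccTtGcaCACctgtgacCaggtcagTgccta
The first window covers coding bases 1351 to 1400 of 1578 (chr11:116765912-116766111, the intron included) and the second covers coding bases 916 to 965 of 1119 (chr11:116677671-116678504, the intron included). They share 40 of 50 bases, and no ungapped pair of coding windows of this length shared more, so no 50-base stretch of coding sequence was common to both genes. Other annotated genes do share such stretches with them. Of 2343 windows of 50 bases in the transcripts of St6galnac1, 818 (34.9%) also occur in the pseudogene Gm11735, which lies between the pair. Of 5735 windows of St6galnac2, 784 (13.7%) also occur in 1810032O08Rik or in a second annotated gene of the same symbol. These genes were not analysed here, and the sources used here do not give how the authors' counting divided such reads, so both levels are uncertain to that extent.

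St6galnac1 had normalized read numbers of 7.84 and 10.8 in the WT Treg libraries, 396 and 402 in KO Treg, 216 and 246 in WT Teff, and 1785 and 1747 in KO Teff. Each KO library was above each WT library of its cell type, and each Teff library was above each Treg library of its genotype. The mean was 42.8 times as high in KO as in WT Treg and 7.65 times as high in KO as in WT Teff. As differences of log2(value + 1), a scale that shrinks the change of low genes, these were 5.29 ± 0.17 (SE) in Treg and 2.93 ± 0.17 (SE) in Teff.

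St6galnac2 had 92.7 and 109.6 in WT Treg, 1649 and 1614 in KO Treg, 129 and 105 in WT Teff, and 5437 and 5333 in KO Teff. The WT values of both cell types overlapped, and the KO values did not. KO was 16.1 times WT in Treg and 46.1 times WT in Teff, which are log2 differences of 4.00 ± 0.13 (SE) and 5.52 ± 0.13 (SE). On the log2 scale the pair thus had its larger KO difference in opposite cell types, St6galnac1 in Treg and St6galnac2 in Teff. For St6galnac1 this rests on low WT Treg values of 7.84 and 10.8. In read numbers both genes rose more in Teff. The St6galnac1 mean went from 9.32 to 399 in Treg and from 231 to 1766 in Teff. The KO effect in Treg minus that in Teff was 2.36 ± 0.24 (SE) for St6galnac1 and -1.52 ± 0.18 (SE) for St6galnac2. Neither difference of effects was called at an adjusted p of 0.05, and the call for St6galnac1 was made without WT Treg replicate 2, with a difference of 2.57. Over all genes 3 were called for this difference of effects, 0.0225% of those tested, of which 0.0225% were higher in Treg and 0% lower. St6galnac2 exceeded St6galnac1 11.0 ± 1.17-fold in WT Treg, 4.09 ± 0.102-fold in KO Treg and 3.05 ± 0.00568-fold in KO Teff, while in WT Teff the ratio was 0.512 ± 0.120, all as ratios of read numbers not corrected for length.

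**Figure D1:**
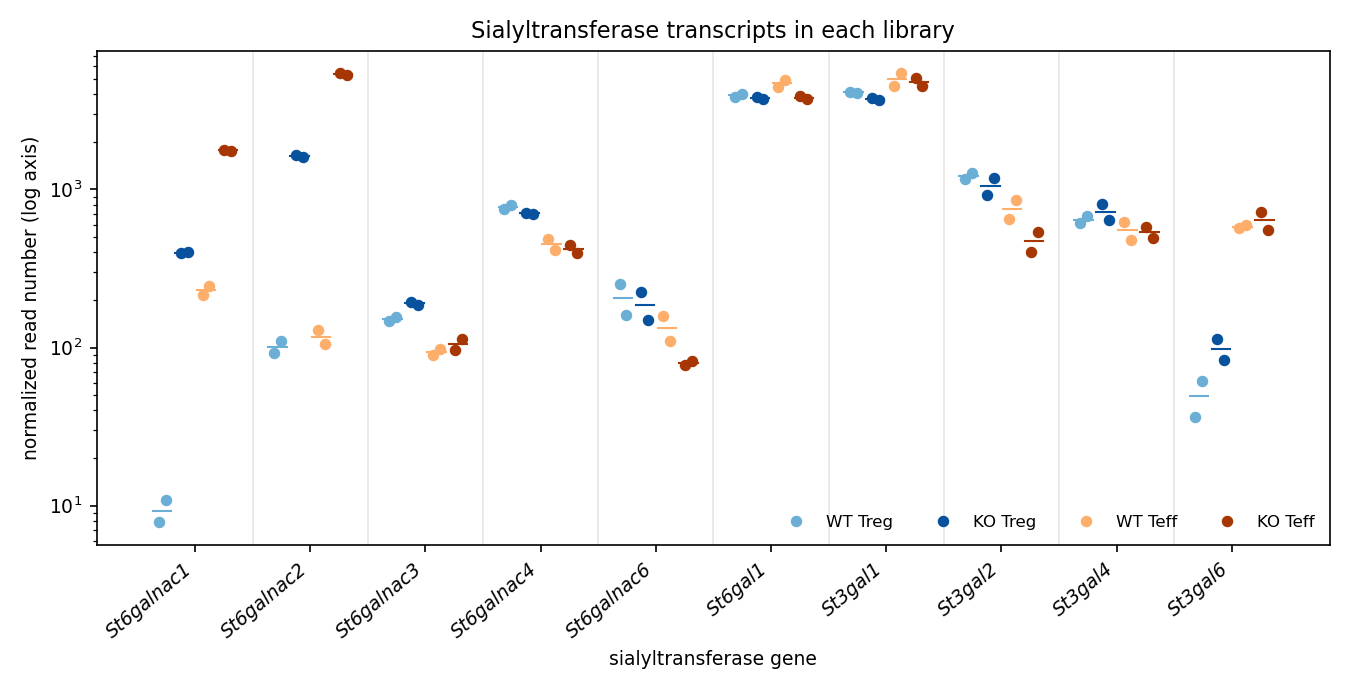
Normalized read number (log axis) of the 10 sialyltransferase genes in each library. Points are libraries, 2 per group, and short lines are group means. St6galnac1 lies between 7.84 and 1785 and St6galnac2 between 92.7 and 5437, with each KO group above the WT group of its cell type, while the WT and KO points of the other genes lie much closer together.

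The other ST6GALNAC genes were measured at lower or steadier levels. St6galnac3 (chr3:153198266-153725174, minus strand), whose product adds sialic acid to glycans that already hold one, had 148 and 156 in WT Treg, 195 and 185 in KO Treg, 89.9 and 98.5 in WT Teff, and 96.9 and 113 in KO Teff. Its KO libraries were above its WT libraries in Treg by 0.32 ± 0.16 (SE) on the log2 scale and overlapped them in Teff (0.15 ± 0.16). St6galnac4 (chr2:32587095-32599698, plus strand), an enzyme of disialylated core O-glycans, had 749 and 797 in WT Treg, 711 and 698 in KO Treg, 483 and 415 in WT Teff, and 445 and 394 in KO Teff. The KO difference was -0.13 ± 0.11 (SE) in Treg, with no overlap, and -0.09 ± 0.11 (SE) in Teff, with overlap. St6galnac6 (chr2:32599709-32620806, plus strand), which acts on gangliosides and begins just past the end of St6galnac4, had 253 and 162 in WT Treg and 224 and 150.2 in KO Treg. In WT Teff it had 158 and 109.7 and in KO Teff 77.0 and 82.4, below both WT values. Its replicates differed more than those of its neighbour, and its KO differences were -0.14 ± 0.30 (SE) in Treg and -0.72 ± 0.30 (SE) in Teff.

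St6gal1 (chr16:23224740-23360350, plus strand) was the strongest of the family per length in 3 of the 4 groups. It had 3867 and 4035 in WT Treg, 3821 and 3745 in KO Treg, 4467 and 4917 in WT Teff, and 3877 and 3744 in KO Teff. The WT Teff libraries stood above the other 6, and the KO libraries were below the WT libraries in both cell types. The log2 difference was -0.06 ± 0.06 (SE) in Treg and -0.30 ± 0.06 (SE) in Teff, so that KO Teff held 0.812 of the WT level.

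Of the ST3GAL genes, St3gal1 (chr15:67102875-67176830, minus strand), the enzyme that caps core O-glycans and so blocks their branching, had 4128 and 4098 in WT Treg and 3775 and 3705 in KO Treg. In WT Teff it had 4525 and 5416 and in KO Teff 5083 and 4506. KO was lower in Treg without overlap (-0.14 ± 0.09, SE) and overlapped WT in Teff (-0.05 ± 0.09). St3gal2 (chr8:110919922-110972480, plus strand), which acts on O-glycans and gangliosides, had 1165 and 1276 in WT Treg, 926 and 1179.9 in KO Treg, 651 and 860.3 in WT Teff, and 404 and 540.1 in KO Teff. Both KO Teff libraries were below both WT Teff libraries, while the Treg libraries overlapped. The differences were -0.22 ± 0.19 (SE) in Treg and -0.68 ± 0.19 (SE) in Teff.

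St3gal4 and St3gal6 encode enzymes known for the sialyl Lewis x structures that selectins bind. St3gal4 (chr9:35046576-35119268, minus strand) had 614 and 676 in WT Treg, 808 and 638 in KO Treg, 624 and 479 in WT Teff, and 581 and 492 in KO Teff. WT and KO overlapped in both cell types, with differences of 0.16 ± 0.17 (SE) and -0.03 ± 0.17 (SE). St3gal6 (chr16:58468125-58524243, minus strand) had 36.5 and 61.9 in WT Treg, 113 and 83.2 in KO Treg, 569 and 593 in WT Teff, and 723 and 558 in KO Teff. It was low in Treg and high in Teff in both genotypes, and its KO libraries were above its WT libraries in Treg and overlapped them in Teff. KO was 1.99 times WT in Treg and 1.10 times in Teff, with log2 differences of 1.01 ± 0.28 (SE) and 0.13 ± 0.28 (SE), and the difference of these effects was 0.88 ± 0.39 (SE). Of the windows of 50 bases in its transcripts, 24.1% also occur in the gene Dcbld2, which has a row of its own.

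All 10 genes passed the filter on low values (at least 10 in at least 2 libraries), and 13358 genes did so in all. In Treg, 2 of the 10 were called at an adjusted p of 0.05 for KO against WT, St6galnac1 and St6galnac2, both higher, and 3 had an unadjusted p below 0.05. The background over all tested genes was 1.45% called, 0.674% higher and 0.779% lower. In Teff, 3 of the 10 were called, the same pair higher and St6gal1 lower, and 5 had an unadjusted p below 0.05. There the background was 6.92%, with 1.84% higher and 5.08% lower. The call for St6gal1 in Teff was made in 8 of 18 alternatives and not without any 1 of the Treg libraries, WT Teff replicate 2 or either KO Teff library, while its log2 difference stayed between -0.37 and -0.23. Since the genes were chosen with this comparison in view, nothing is read from these counts.

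The libraries of WT and KO did not overlap for 7 of the 10 genes in Treg (4 higher and 3 lower in KO), against 48.7% of all tested genes (22.8% higher and 25.9% lower). In Teff they did not overlap for 5 of the 10 (2 higher and 3 lower), against 49.8% of all tested genes (22.4% higher and 27.4% lower). The median difference of the 10 was 0.05 in Treg and -0.04 in Teff, beside -0.01 and -0.02 over all tested genes. The authors' deposited table called 3 of the 10 in Treg, with log2 fold changes of 5.42 for St6galnac1, 4.02 for St6galnac2 and 1.03 for St3gal6. The authors' deposited table called 4 in Teff, with 2.93 for St6galnac1, 5.54 for St6galnac2, -0.30 for St6gal1 and -0.68 for St3gal2. Of all genes with an adjusted p there, the authors' deposited table called 3.28% in Treg and 8.82% in Teff.

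**Figure D2:**
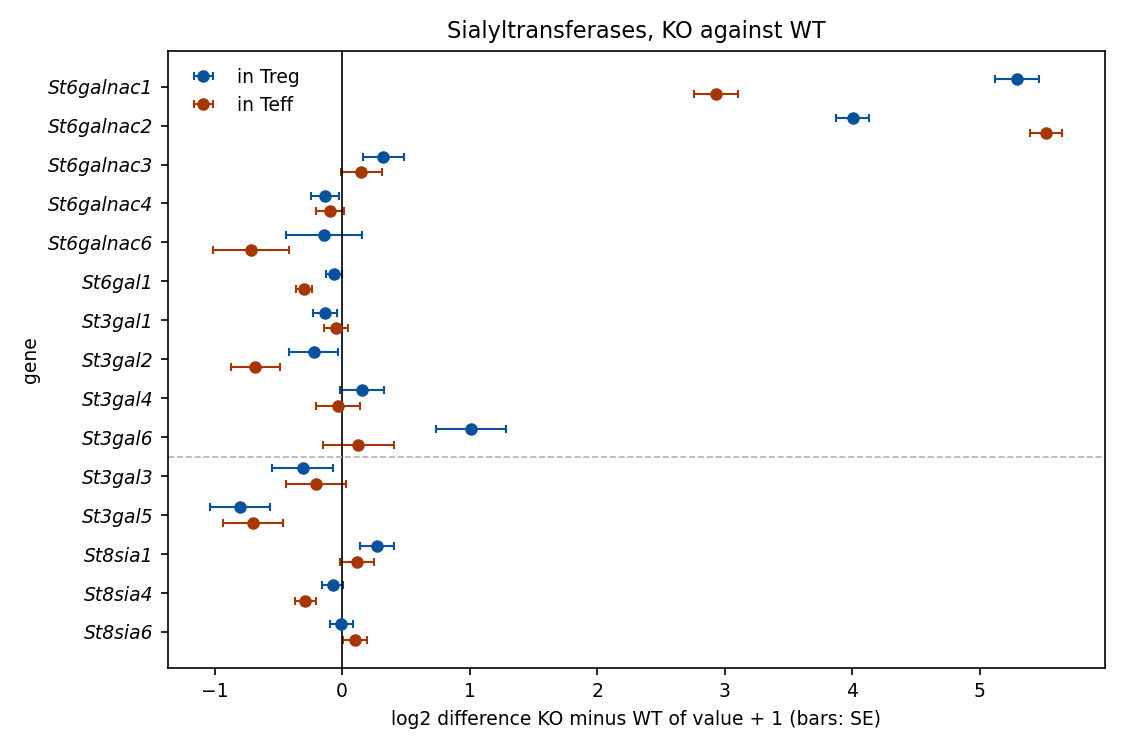
Difference KO minus WT of log2(value + 1) in Treg and in Teff for the 10 genes (above the dashed line) and for 5 other tested sialyltransferases (below it). Bars are SEs of the fit over 8 libraries. St6galnac1 (5.29 and 2.93) and St6galnac2 (4.00 and 5.52) lie far to the right, and the other genes between -0.80 and 1.01.

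The remaining sialyltransferases are those that the choice of the 10 left over, so their counts are read with that choice in mind. None of the 5 that passed the filter was called for KO against WT in either cell type by limma, with 1 in Treg and 2 in Teff at an unadjusted p below 0.05. St3gal5, which makes GM3 and so starts the gangliosides, had 101 and 126 in WT Treg and 60.8 and 68.4 in KO Treg. In WT Teff it had 69.9 and 58.8, and in KO Teff 43.9 and 34.8, so that KO was below WT in both cell types without overlap. The differences of -0.80 ± 0.23 (SE) and -0.70 ± 0.23 (SE) did not pass (adjusted p = 0.173 and 0.136). St8sia4, a polysialyltransferase, differed by -0.29 ± 0.08 (SE) in Teff (adjusted p = 0.0878). St8sia1, which makes the ganglioside GD3, and St8sia6 had adjusted p of at least 0.417 and 0.582 in these comparisons. St6gal2 was at 3.92 or less and St6galnac5 at 8.82 or less in every library, below the filter, and both are not tested.

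The order of the genes within the family was set by level per kilobase of merged exons. In WT Treg the order began with St6gal1 (804 ± 24.2 per kb), St3gal1 (600.3 ± 3.15), then St3gal2 (242 ± 15.6) and St3gal4 (221 ± 15.0), the last 2 of which overlapped. St6galnac2 came at rank 12 of 17 (17.5 ± 2.07), overlapping St6galnac3, and St6galnac1 at rank 15 (3.89 ± 0.871). In KO Treg, St6galnac2 was at rank 3 (282 ± 4.27), behind St6gal1 (769.5 ± 11.0) and St3gal1 (546 ± 7.18) and above St3gal4, and St6galnac1 was at rank 7 (167 ± 1.63). Both thus stood higher in the order in KO than in WT Treg.

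In WT Teff, St6gal1 (954 ± 64.7 per kb) and St3gal1 (726 ± 92.0) again led, St6galnac1 was at rank 7 (96.6 ± 8.90), overlapping St3gal6, and St6galnac2 at rank 14 (20.2 ± 2.91). In KO Teff, St6galnac2 stood first (930.1 ± 12.6), above St6gal1 (775 ± 19.1). St6galnac1 (738 ± 11.4) and St3gal1 (699.9 ± 59.5) followed and overlapped. With the length of the longest coding transcript in place of merged exons, St6galnac2 was also first in KO Teff (1478 per kb) and St6galnac1 at rank 4. In KO Treg that length put St6galnac2 at rank 3 and St6galnac1 at rank 9, and in WT Teff St6galnac1 at rank 10. This alternative was chosen after seeing the data.

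St6galnac1 and St6galnac2 together made up 0.841% ± 0.0995 of the summed level per kb of the 17 genes in WT Treg and 15.8% ± 0.285 in KO Treg. In Teff they made up 4.13% ± 0.0300 in WT and 40.7% ± 1.14 in KO. The summed level per kb of the family was 2537 ± 49.1 in WT Treg, 2842 ± 68.0 in KO Treg, 2831 ± 166 in WT Teff and 4103 ± 174 in KO Teff. Without the pair, the read numbers of the other 8 genes summed to 11112 ± 213 in WT Treg and 10478 ± 134 in KO Treg, and to 12228 ± 935 in WT Teff and 10859 ± 605 in KO Teff. The family sum was therefore higher in KO and the sum of the other 8 lower, and the WT and KO libraries overlapped in neither sum in either cell type.

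**Figure D3:**
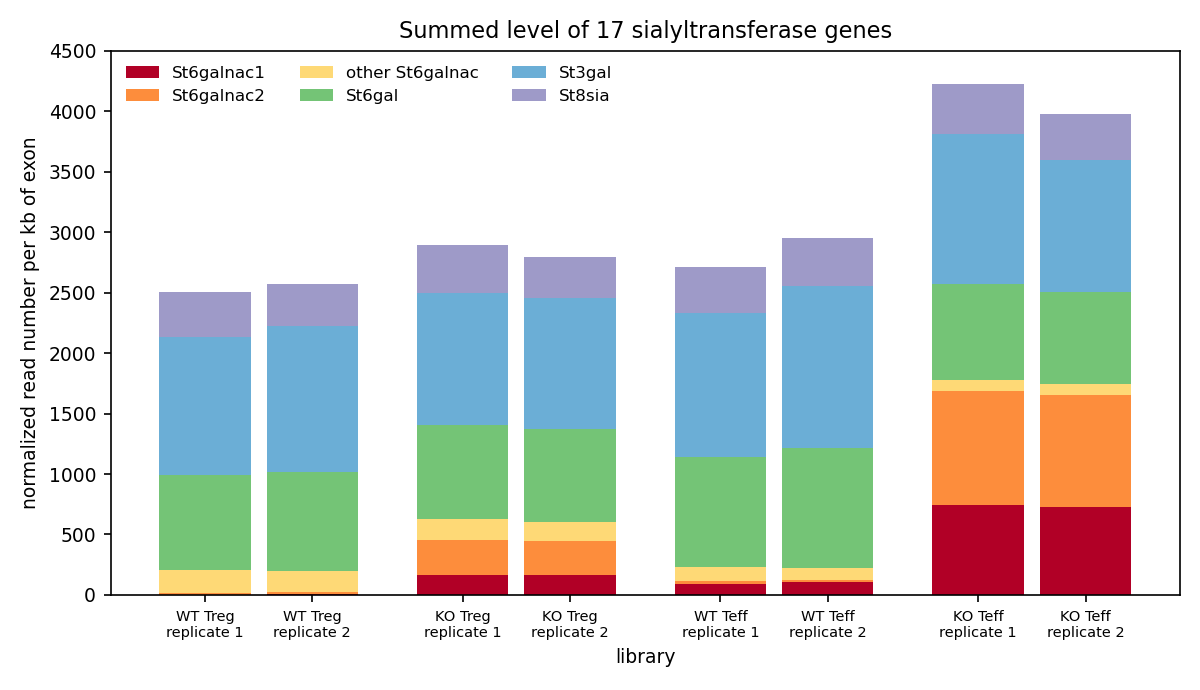
Summed level of the 17 measured sialyltransferase genes per kilobase of merged exons (normalized read number per kb), 1 bar per library, stacked by enzyme group. St6galnac1 and St6galnac2, the lowest blocks, make up 0.841% of the bar in WT Treg, 15.8% in KO Treg, 4.13% in WT Teff and 40.7% in KO Teff on average.

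Treg and Teff differed in much of the family in both genotypes. St6galnac1 was 24.8 times as high in Teff as in Treg in WT and 4.42 times in KO. St6galnac2 was 1.16 times as high in WT, where the libraries overlapped, and 3.30 times in KO, where they did not. St3gal6 was 11.8 times as high in Teff in WT and 6.53 times in KO, the lower ratio going with the higher KO Treg values given above. In Treg, 4 genes were higher than in Teff in both genotypes without overlap of libraries: St6galnac3 (log2 difference 0.68 in WT and 0.86 in KO), St6galnac4 (0.79 and 0.75), St6galnac6 (0.62 and 1.19) and St3gal2 (0.70 and 1.16). St3gal1 was lower in Treg in both (-0.27 and -0.36), St3gal4 differed by 0.24 and 0.42, and St6gal1 by -0.25 and -0.01. The WT and KO comparisons use different libraries.

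Of the 10 genes, 6 were called for Treg against Teff in WT (3 higher and 3 lower) and 8 in KO (4 higher and 4 lower). The background was 25.1% of all tested genes in WT (13.5% higher and 11.6% lower) and 26.9% in KO (15.7% higher and 11.2% lower). Without either WT Treg library the WT count was 3 of 10, the calls for St6galnac3, St3gal2 and St6gal1 being those not made. The libraries did not overlap for 8 of the 10 in WT (4 higher and 4 lower) and 9 in KO (5 higher and 4 lower). Over all tested genes that held for 63.5% in WT (32.0% higher and 31.5% lower) and 64.9% in KO (32.9% higher and 32.1% lower). The median difference of the 10 was 0.02 in WT and 0.21 in KO, beside 0.00 over all tested genes in each. St8sia1, outside the 10, was lower in Treg by -1.74 ± 0.13 (SE) in WT and -1.58 ± 0.13 (SE) in KO (limma adjusted p = 0.000146 and 0.000162). St8sia6 was higher in Treg by 0.73 ± 0.09 (SE) and 0.62 ± 0.09 (SE) (adjusted p = 0.00120 and 0.00212), and both genes kept these calls in all 18 alternatives.

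**Figure D4:**
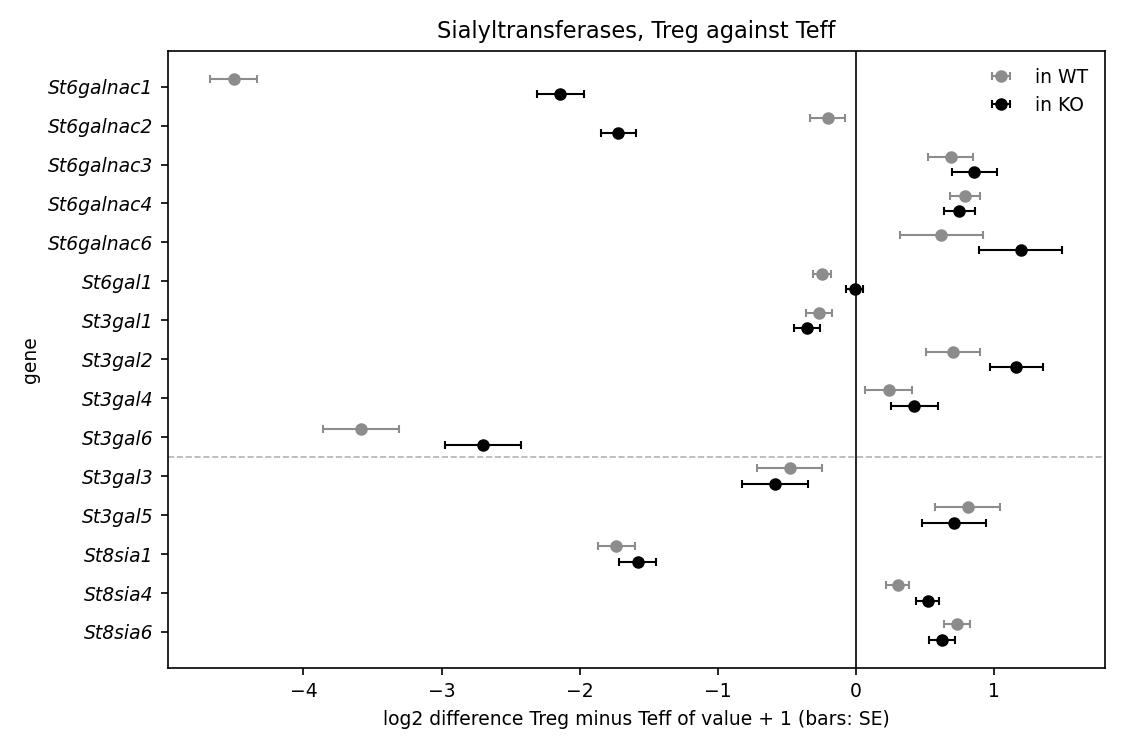
Difference Treg minus Teff of log2(value + 1) in WT and in KO for the 10 genes (above the dashed line) and 5 other tested sialyltransferases (below it). Bars are SEs of the fit over 8 libraries. St6galnac1 (-4.50 and -2.14) and St3gal6 (-3.58 and -2.70) lie farthest to the left, and St6galnac2 moves from -0.21 in WT to -1.72 in KO.

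The genes around the pair were measured as well. In the span of St6galnac1 and St6galnac2 with 500 kb on each side, 51 other genes are annotated, 26 had a row and 23 passed the filter. In Treg 1 of the 23 was called for KO against WT, Cygb, which rose. In Teff 7 were called and all 7 rose: Foxj1, Rnf157, Cygb, Prcd, Mxra7, Jmjd6 and Srsf2. Cygb, Prcd, Mxra7 and Foxj1 reached the filter (at least 10 in at least 2 libraries) only with their KO libraries. The filter thus selected them for high KO values, and nothing is read from the direction of their calls. The median of the 23 was 0.03 in Treg and 0.08 in Teff, beside -0.01 and -0.02 over all tested genes, and the background of calls is 1.45% and 6.92% as above. In Teff the count was 1 to 4 without any 1 of the 8 libraries, 1 of them without WT Teff replicate 2, and 1 with only the Teff libraries in the fit.

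Cygb (chr11:116645595-116654313, minus strand), the gene of the heme protein cytoglobin, lies 21.0 kb below St6galnac2. It had 2.94 and 1.96 in WT Treg, 49.2 and 51.1 in KO Treg, 8.04 and 10.1 in WT Teff, and 131 and 90.6 in KO Teff. Its KO libraries were above its WT libraries in both cell types, a direction that the filter favoured. KO minus WT was 3.90 ± 0.35 (SE) in Treg and 3.46 ± 0.35 (SE) in Teff. Because of the filter, no p-value is given for Cygb, Prcd or Mxra7.

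Prcd (chr11:116653534-116668389, plus strand), named for a photoreceptor disc protein, is the nearest tested gene on that side, 6.9 kb from St6galnac2. It had 1.05 and 0 in WT Treg, 10.7 and 5.88 in KO Treg, and 21.6 and 16.6 in KO Teff, while each WT Teff library lists it at 0. The Teff call was made in 12 of the 17 alternatives that tested it, and Prcd was not called in Treg. Prcd and Cygb overlap on opposite strands and the protocols name no step that marks the strand, so reads of the overlap may not be told apart. Mxra7 (chr11:116803062-116828046, minus strand) is the nearest tested gene on the other side, 27.6 kb above St6galnac1. It had 7.61 and 3.60 in WT Treg, 10.8 and 13.2 in KO Treg, 2.95 and 1.48 in WT Teff, and 15.2 and 19.8 in KO Teff. KO minus WT was 2.55 ± 0.54 (SE) in Teff and 1.04 ± 0.54 (SE) in Treg. The Teff call was made in only 7 of the 17 alternatives that tested it, and Mxra7 was not called in Treg.

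In the table, Cygb, Prcd, St6galnac2, St6galnac1 and Mxra7 follow each other along the chromosome with no other gene between them. The genes just outside had smaller differences, and unlike Cygb, Prcd and Mxra7 they passed the filter without their KO libraries. Rhbdf2, next below Cygb, differed by 0.35 in Treg and 0.16 in Teff (limma adjusted p = 0.121 and 0.343). Jmjd6, a hydroxylase gene next above Mxra7, differed by 0.26 in Treg (adjusted p = 0.122) and rose by 0.44 in Teff (adjusted p = 0.0117). Ern1 itself ends 10.19 Mb below the pair on the same chromosome.

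**Figure D5:**
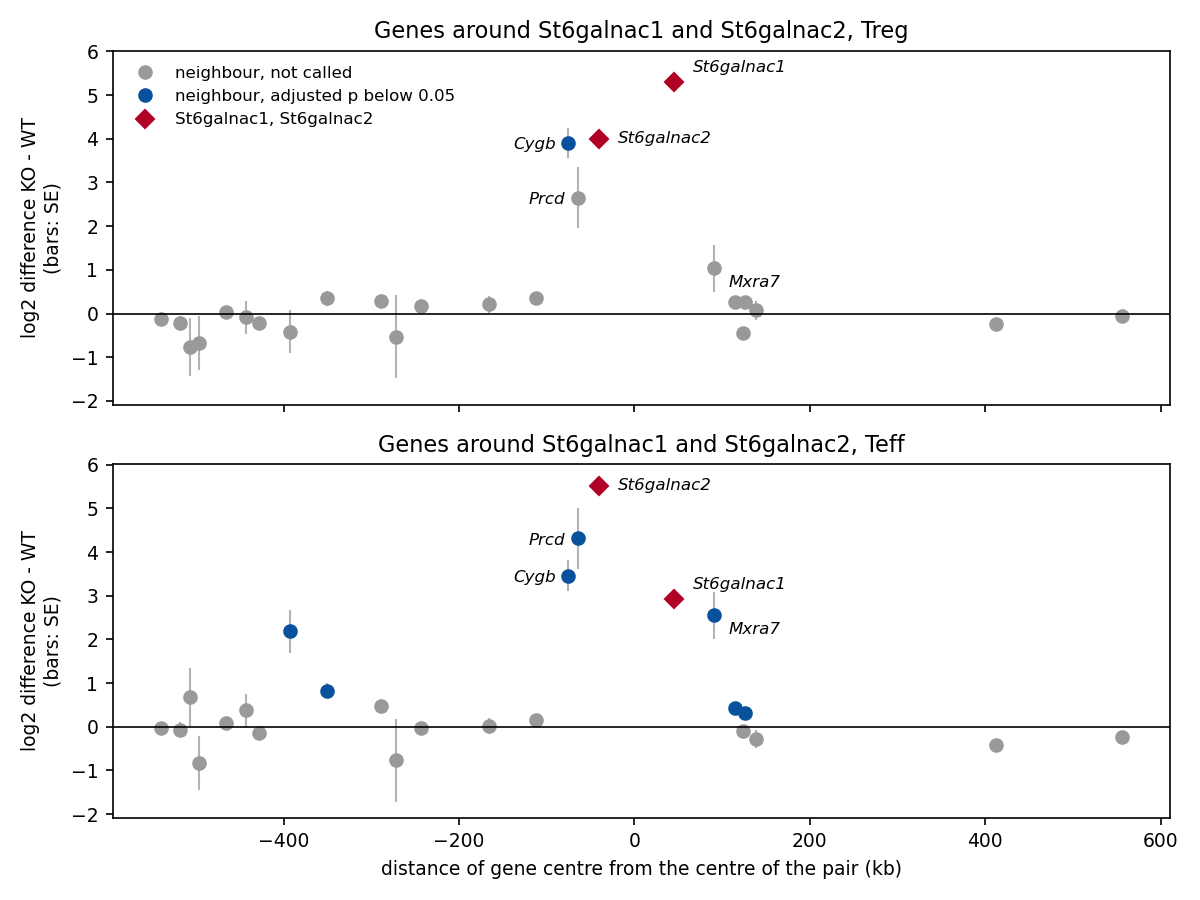
Difference KO minus WT of log2(value + 1) in Treg and in Teff for the pair (diamonds) and 23 tested neighbours (circles), by distance in kb of the gene's centre from the centre of the pair. Bars are SEs, and filled blue circles passed the limma test. The large differences lie within about 100 kb of the centre (Cygb 3.90 and 3.46, Mxra7 1.04 and 2.55), with Foxj1 (2.18 in Teff) farther out. Cygb, Prcd, Mxra7 and Foxj1 reached the filter only with their KO libraries, so nothing is read from their direction or place.

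Genes with a pattern most like that of the pair were found by Pearson correlation of log2(value + 1) over the 8 libraries, a description that 4 group means shape. For St6galnac1 they were Rbm48 (r = 0.988), Bcl2l11 (0.986), Tmem267 (0.982), Marf1 (0.979) and Plpp6 (0.976). All 5 had their lowest mean in WT Treg and their highest in KO Teff, as St6galnac1 did, an order that choosing by correlation favours. The correlation does not reflect size. KO was 1.15 (Marf1) to 1.94 (Bcl2l11) times WT in Treg for the 5, beside 42.8 for St6galnac1. Bcl2l11, which encodes the BH3-only protein BIM, had means of 669 in WT Treg, 1301 in KO Treg, 1159 in WT Teff and 1759 in KO Teff. For St6galnac2 they were Znrf3 (0.990), Trav16d-dv11 (0.988), H2-T3 (0.980), Rps18-ps6 (0.980) and Aoc2 (0.978). Rps18-ps6, a ribosomal protein pseudogene on chromosome 13, had means of 30.4 in WT Treg, 5432 in KO Treg, 36.8 in WT Teff and 10000 in KO Teff. H2-T3, a nonclassical MHC gene on chromosome 17, had means of 7.62, 83.8, 5.38 and 127 in that order. The pair's own correlation was 0.82.

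The wider sialic acid pathway was read from 7 lists of 77 genes, of which 73 had a row and 62 passed the filter. For KO against WT in Treg, 1 of the 62 was called (13 had an unadjusted p below 0.05), beside 1.45% of all tested genes. In Teff 8 were called, 3 of which rose and 5 of which fell (25 had an unadjusted p below 0.05), beside 6.92% of all tested genes (1.84% higher and 5.08% lower). The median of the 62 was 0.00 in Treg and -0.13 in Teff. None was called for the difference between the effects in Treg and Teff, where 11 had an unadjusted p below 0.05. The Teff count ranged from 0 to 6 when 1 library was left out, with 0 without WT Teff replicate 2, and was 0 with only the Teff libraries in the fit.

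No gene of CMP-sialic acid synthesis and transport was called for KO against WT (0 of 8 in each cell type, with 2 in Treg and 1 in Teff at an unadjusted p below 0.05 by limma). Nans, the sialic acid synthase, differed by -0.21 ± 0.07 (SE) in Treg (adjusted p = 0.259). Nanp, the phosphatase of the next step, differed by 1.00 ± 0.32 (SE) in Teff (adjusted p = 0.123). None of the 4 tested sialidase and sialate esterase genes was called (0 in Treg and 2 in Teff at an unadjusted p below 0.05). Neu3, a plasma membrane sialidase for gangliosides, differed by -0.49 ± 0.13 (SE) in Teff (adjusted p = 0.0744).

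Among genes that start and extend O-glycans, the substrates of the ST6GALNAC enzymes, 2 of 15 were called in Teff and none in Treg (5 there at an unadjusted p below 0.05). For this and the lists that follow, the background of calls was 6.92% in Teff and 1.45% in Treg. None of their Teff calls was made with only the Teff libraries in the fit, as given above. Galnt11 had 574 and 577 in WT Teff and 829 and 849 in KO Teff, and rose by 0.54 ± 0.08 (SE) (adjusted p = 0.0130). Galnt6 had 4128 and 3945 in WT Teff and 4916 and 4908 in KO Teff, and rose by 0.28 ± 0.05 (SE) (adjusted p = 0.0247). Both encode enzymes that put the first sugar on serine or threonine. Among genes of N-glycan branching and galactosylation, 2 of 13 were called in Teff and none in Treg (1 there at an unadjusted p below 0.05). Man2a2, a Golgi mannosidase, rose by 0.43 ± 0.08 (SE) (adjusted p = 0.0272), and B4galt4, a galactosyltransferase, fell by 1.31 ± 0.22 (SE) (adjusted p = 0.0182) from 77.1 and 72.9 to 35.6 and 24.7. Among these O-glycan and N-glycan genes, Galnt6 and Man2a2 were also not called without the trend and robust options of limma.

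Of 11 tested genes of sialylated carriers and selectin ligands, 2 were called in Teff and both fell. Fut7, the fucosyltransferase that completes sialyl Lewis x, had 105 and 123 in WT Teff and 32.5 and 45.7 in KO Teff, and fell by 1.53 ± 0.26 (SE) (adjusted p = 0.0180). Cd44, an adhesion receptor, fell by 0.53 ± 0.11 (SE) in Teff (adjusted p = 0.0313), a call made in only 9 of 18 alternatives. Of 6 tested Siglecs, 2 fell in Teff: Siglece by 1.20 ± 0.24 (SE) (adjusted p = 0.0284) and Cd22, a B cell receptor for the product of ST6GAL1, by 1.53 ± 0.35 (SE) (adjusted p = 0.0460). In Treg 0 of 6 were called and 1 had an unadjusted p below 0.05.

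Between Treg and Teff, 31 of the 62 were called in WT (12 higher in Treg and 19 lower), beside 25.1% of all tested genes, and 33 in KO (15 higher and 18 lower), beside 26.9%. Without WT Treg replicate 1 the WT count was 20. Cmah, which makes the glycolyl form of sialic acid, was lower in Treg by -1.23 ± 0.11 (SE) in WT and -1.01 ± 0.11 (SE) in KO (adjusted p = 0.000330 and 0.000578). Neu3 was higher in Treg by 0.91 ± 0.13 (SE) and 1.39 ± 0.13 (SE) (adjusted p = 0.00229 and 0.000265), and the branching enzyme gene Mgat5 by 1.02 ± 0.09 (SE) and 1.06 ± 0.09 (SE) (adjusted p = 0.000228 and 0.000134). Galnt10 was lower in Treg by -0.99 ± 0.07 (SE) and -1.07 ± 0.07 (SE) (adjusted p = 7.8e-05 and 4.08e-05), and the carrier gene Thy1 by -1.10 ± 0.04 (SE) and -0.82 ± 0.04 (SE) (adjusted p = 1.18e-05 and 2.1e-05). These 5 genes were called in all 18 alternatives in both genotypes.

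Siglece, known from myeloid cells, and Siglec1, a macrophage receptor, were higher in Treg in WT by 3.01 and 3.58 (limma adjusted p = 0.000159 and 0.00269). Siglech, a gene of plasmacytoid dendritic cells, was lower in Treg by -5.38 (adjusted p = 0.000494). Markers of such cells differed between the groups. The summed level of 6 macrophage and monocyte markers was 9999 to 10113 in WT Treg, 5900.2 to 6149.7 in KO Treg, 954 to 1405 in WT Teff and 559 to 649 in KO Teff. Between Treg and Teff in WT, 5 of the 6 were called higher in Treg and Itgam lower, and none was called between KO and WT. The sum of 7 B cell markers was 349.6 to 361 in WT Treg, 499 to 513 in KO Treg, 153 to 156 in WT Teff and 102 to 261 in KO Teff. Pax5 alone carried the higher sums, at 178 and 162 in KO Treg and 9.06 and 168 in KO Teff against 17.7 or less in each WT library, and none of the 7 was called between KO and WT. The sum of 5 NK cell markers was 102 to 132, 186 to 214, 935 to 1061 and 1074 to 1159 in that order, with Ncr1 below 10 everywhere. Prf1 carried the higher KO sums and rose in both cell types, from 73.8 and 86.5 to 170.1 and 144 in Treg and from 442 and 436 to 775 and 757 in Teff. Klrb1c, the gene of NK1.1, had 441 and 564 in WT Teff and 345 and 280.4 in KO Teff. The sum of 7 plasmacytoid dendritic cell markers was 2083 to 2744 over all libraries, most of it from Pacsin1 at 1408 or more. In each genotype 4 of the 7, Siglech among them, were called lower in Treg and Pacsin1 higher, and Spib fell in KO Teff. The sum of 5 erythroid markers was 922 to 1234 in the Treg libraries and 125 to 257 in the Teff libraries. T cell markers summed to 63799 to 71853, and no marker of any list was at 0 in every library. The macrophage sum was lower in KO than in WT in both cell types. The part of these cells in the results was not tested. In sorted bulk RNA, fewer cells that express a gene and less RNA per cell cannot be told apart.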

How the data were processed

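Messenger RNA was measured in 8 libraries, 4 groups of 2. TRIzol extraction was followed by selection on oligo(dT) beads, per the labels' protocols, cDNA was primed with random hexamers, and single-end reads of 50 bases were made on a DNBSEQ instrument. No step that marks the strand and no molecular identifiers are named there. The tools of the authors were DESeq2 1.28.1 in R 4.0.3, the quantifier Salmon 0.14.1 and the trimmer Trim Galore 0.4.4, and the mouse build was mm10, per the submitters' processing notes. The deposited signal columns hold, 1 per library, the authors' normalized read number per gene, which is not whole, so no count test was possible although the planned main test was one. The depth in reads is thus not known from the values, and library sums were nearly even. The authors' deposited table also gives their log2 fold changes of KO over WT and their adjusted p-values, used only where that table is named.

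Values were tested as log2(value + 1) in R 4.3.3 by limma 3.58.1 (trend and robust empirical Bayes), fitting all 8 libraries with a term for each group (4 residual degrees of freedom), on the 13358 genes with at least 10 in at least 2 libraries. P-values were adjusted by Benjamini-Hochberg over all tested genes within each of 5 contrasts and called at 0.05. The script was tested on simulated data. Positions, exon lengths and sequences came from GENCODE M21 (GRCm38, the assembly also called mm10), where all 18438 identifiers were found. Levels per kb used merged exons. Shared reads were looked for as 50-base windows on both strands. Summaries used pandas 2.3.3 and numpy 2.4.6 in Python 3.11.15, and figures matplotlib 3.10.9.

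The genes of the family, the pathway and marker lists were chosen with earlier results of these data known. Named were all 10 genes, every measured other sialyltransferase, up to 4 called genes per pathway list and contrast (the one of smallest p where none was called), up to 6 called neighbours and the nearest on each side, the 5 genes most correlated with St6galnac1 and with St6galnac2, and Ern1 and Xbp1. The 1 pathway gene called in Treg is not reported here. Rhbdf2, Srsf2 and the single marker genes given fall outside this rule and were chosen after their values were seen. Xbp1, whose splicing gene-level values do not show, differed by 0.24 in Treg and 0.19 in Teff between KO and WT (adjusted p = 0.325 and 0.312). Alternatives changed the pseudocount, filter, scaling, shrinkage, libraries in the fit and replicate block.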

Additional observations from a re-analysis of the deposited data

How the results depend on the processing

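St6galnac1 and St6galnac2 were higher in KO and called in both cell types in all 18 alternatives, with log2 differences of 4.83 to 5.50 (Treg) and 2.84 to 3.03 (Teff) for St6galnac1 and 3.88 to 4.15 and 5.37 to 5.67 for St6galnac2. The count of called members was 2 in Treg in each and 2 to 3 in Teff. For the difference of KO effects it went from 0 to 1 (St6galnac1) with no filter and with equal library totals, and was 0 to 1 with 1 library left out. The count of pathway genes called in Treg went from 1 to 2 with equal library totals and to 0 without trend and robust options, and was 0 to 1 with 1 library left out. In Teff it went from 8 to 4 without trend and robust options and to 0 with only the groups compared, and was 0 to 6 with 1 library left out. The count of neighbours called in Teff went from 7 to 4 with a minimum of 50, which tests fewer genes, and to 1 with only the groups compared, and was 1 to 4 with 1 library left out. For Treg against Teff in WT, leaving out 1 library gave 3 to 6 members and 20 to 30 pathway genes, and in KO 6 to 8 and 23 to 34. With only the groups compared the fit holds fewer libraries; the cause of the other changes was not tested. No called value changed sign. With the replicate block, members called were 2 in Treg, 3 in Teff (St3gal2 in place of St6gal1), 0 for the difference, and 6 and 8 for Treg against Teff in WT and KO. Pathway counts with the block were 0, 8, 0, 27 and 34, and neighbours 1 in Treg and 4 in Teff. Replicate numbers pair nothing that the labels name, and deviations of same-numbered libraries correlated at -0.04 to 0.06 between groups. DESeq2 was not run because no counts were given, and the difference of effects has no value with only the groups compared. No scaling moved the median of all genes by more than 0.1. With 2 libraries a group, their number limits the precision.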
